A study of Homo sapiens with 6 samples.

Results

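SNU16 gastric carcinoma cells held transcripts of genes that are usually read as signs of fibroblasts, pericytes and blood vessels, and most of these genes were at lower levels after knockdown of ENO1. The genes are the proteoglycans DCN and LUM, the receptor PDGFRB, the endothelial cadherin CDH5 and the protease inhibitor PZP, which earlier results of these data had shown to be expressed, and PECAM1, COL1A1 and COL3A1, taken as checks for RNA of other cells. They are 8 of the 30716 genes in the table of the authors, and all 8 had values. The members were chosen by their FPKM values in these same libraries, with the contrast of knockdown and control in view, so their differences are given as a description without p-values. Decorin (DCN) and lumican (LUM) bind collagen fibrils of connective tissue, the beta receptor for platelet-derived growth factor (PDGFRB) recruits pericytes to vessels, and VE-cadherin (CDH5) joins endothelial cells to each other. COL1A1 and COL3A1 encode the chains of fibrillar collagens that fibroblasts secrete in bulk, and PECAM1 (CD31) is an adhesion molecule of endothelium, platelets and leukocytes. PZP, the pregnancy zone protein, is a plasma protein of the alpha-2-macroglobulin family and marks neither stroma nor endothelium.

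The cells carried an shRNA against ENO1, the gene of alpha-enolase (shENO1, 3 libraries), or a control shRNA (shcon, 3 libraries). SNU16 is an established human line of gastric carcinoma, and the shRNA against ENO1 was brought in by lentivirus, followed by puromycin selection. The submitters speak of biological replicates without naming separate cultures, so p-values measure only the spread between these libraries, which may be technical. RNA was taken from whole cultures, in which fewer cells of a type and less RNA per cell cannot be told apart.

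Values are FPKM, fragments counted per kilobase of exon and scaled to the depth of a library. The libraries held an estimated 15572378 to 16963853 fragments, so that 1 fragment on a transcript of 1 kilobase equals 0.0589 to 0.0642 FPKM. ENO1 was at 99.5, 84.9 and 91.1 FPKM in shENO1 libraries, against 323, 312 and 386 FPKM in shcon libraries, a log2 fold change of -1.88 (SE 0.11, limma adjusted p = 0.000425). Genes averaging 0.5 FPKM or more (15181 genes) were tested with limma on log2(FPKM + 1). At an adjusted p under 0.05 15.1% of them were higher and 14.4% were lower in shENO1 cells, 29.5% in all, and the median log2 fold change was 0.029. A gene is called higher or lower below on that criterion. The epithelial label of the line was only partly met: KRT8, KRT18 and KRT7 reached 61.9 to 122 FPKM in shENO1 libraries, against 166 to 278 FPKM in shcon libraries, while CDH1 and EPCAM lay between 0.602 and 1.59 FPKM and KRT19 had reads in 1 library only, at 0.0515 FPKM. Of 10 epithelial genes tested, 7 were lower and 3 were not called (median log2 fold change -0.78).

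Promoter sequences of 300 bases around the transcription start are shown for the 2 genes of the group that the RefSeq table (GRCh38.p14) holds, PDGFRB and PZP, which also had the lowest ratios of shENO1 to shcon. Each is written 5′ to 3′ on the strand of the gene, with motif matches on either strand in capitals. The motifs searched were the CCAAT box (CCAAT), the TATA box (TATAAA), an E-box (CACGTG), an AP-1 site (TGACTCA) and an ETS core (GGAAGT).
PDGFRB, chr5:150155796-150156095, minus strand: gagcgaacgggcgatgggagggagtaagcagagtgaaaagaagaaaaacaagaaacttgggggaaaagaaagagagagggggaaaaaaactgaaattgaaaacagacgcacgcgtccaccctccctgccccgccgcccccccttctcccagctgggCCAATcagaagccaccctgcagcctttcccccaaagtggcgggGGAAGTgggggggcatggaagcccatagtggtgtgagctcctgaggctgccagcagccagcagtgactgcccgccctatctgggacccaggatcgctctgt
PZP, chr12:9208346-9208645, minus strand: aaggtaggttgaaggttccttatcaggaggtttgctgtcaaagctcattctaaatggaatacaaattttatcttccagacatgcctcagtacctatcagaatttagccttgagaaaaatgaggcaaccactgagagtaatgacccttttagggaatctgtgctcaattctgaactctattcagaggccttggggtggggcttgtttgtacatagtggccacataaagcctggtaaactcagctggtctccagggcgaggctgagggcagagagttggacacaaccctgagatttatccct
The PDGFRB window holds CCAAT at bases 157 to 161 and GGAAGT at bases 200 to 205, counted from its 5′ end, and the 2 matches do not overlap. CCAAT occurs in 34.61% and GGAAGT in 22.79% of the 35116 promoters of the table. The PZP window holds none of the 5 motifs, of which TATAAA occurs in 11.53%, CACGTG in 7.26% and TGACTCA in 4.95% of promoters. A match is a run of letters, and no binding was measured in these cells.

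DCN was 3.39-fold lower in shENO1 cells. The gene (ENSG00000011465; chromosome 12 from 91140484 to 91183217 of GRCh38) encodes a small leucine-rich proteoglycan that also binds transforming growth factor beta. It was at 2.46, 2.71 and 2.71 FPKM in shENO1 libraries, against 10.1, 9.56 and 7.03 FPKM in shcon libraries. The groups did not overlap, and the lowest shcon library was replicate 3. On means the levels were 2.63 ± 0.145 FPKM in shENO1 libraries, against 8.91 ± 1.66 FPKM in shcon libraries (n = 3 each, SD), and the log2 fold change of FPKM + 1 was -1.44 (SE 0.13). These values rest on 520, 596 and 546 fragments in shENO1 cells and 2139, 1977 and 1513 fragments in shcon cells.

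LUM, the neighbour of DCN and also a small leucine-rich proteoglycan, differed less. LUM (ENSG00000139329; chromosome 12 from 91102629 to 91111494) was at 6.74, 7.08 and 7.67 FPKM in shENO1 libraries, against 10.4, 9.70 and 11.01 FPKM in shcon libraries. Again no shENO1 library reached a shcon library, but here shcon replicate 3 was the highest of all. The mean was 7.17 ± 0.468 FPKM in shENO1 libraries, against 10.4 ± 0.656 FPKM in shcon libraries (n = 3 each, SD), which is 0.692 times the control level, with a log2 fold change of -0.48 (SE 0.09). With 2 genes 28.99 kb apart on the same strand, the fold changes on the log2 scale were thus -1.44 for DCN and -0.48 for LUM. Correction for GC content and exon length, which takes the dependence of each library on both out of the values, put them at -1.86 for DCN and -0.84 for LUM, whose exons hold 40.3% and 36.5% G and C against a median of 48.9% over tested genes. KERA and EPYC, the keratocan and epiphycan genes next to LUM in the same cluster, lay below 0.1 FPKM in every library.

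**Figure D1:**
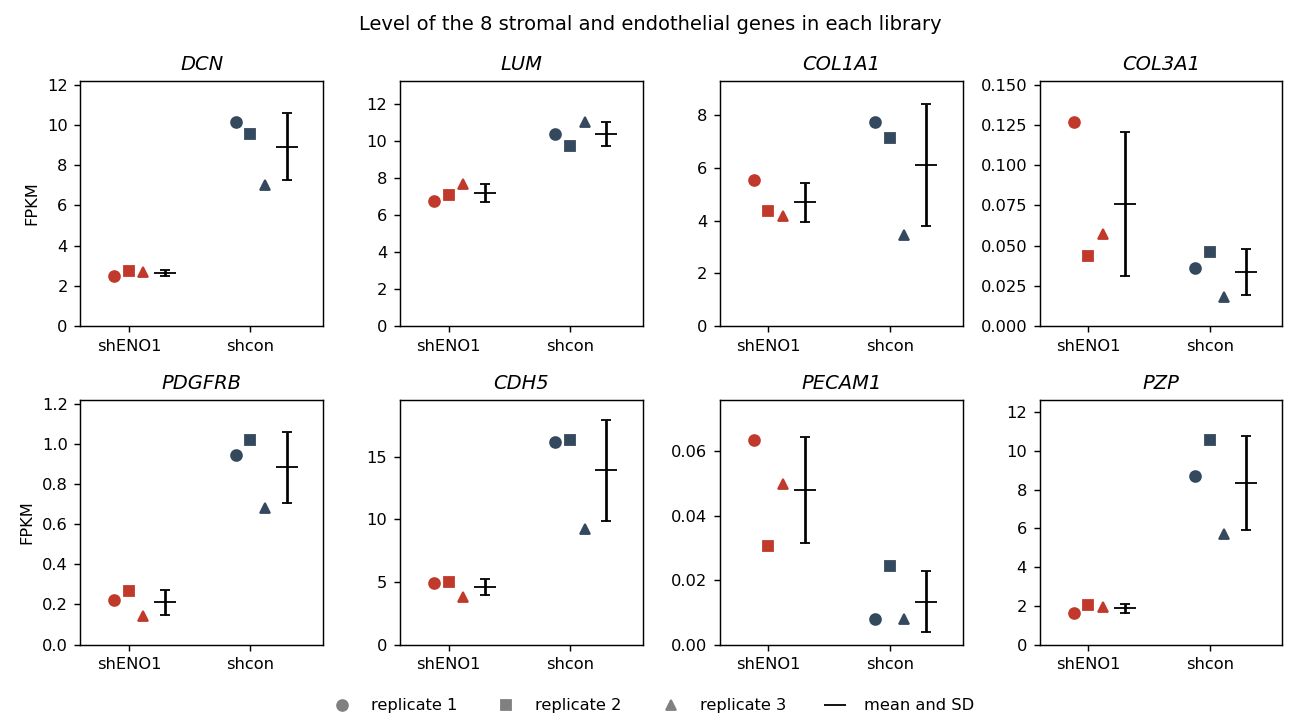
FPKM of each of the 8 genes in the shENO1 libraries (red) and the shcon libraries (dark blue), with symbols for the replicate number and black bars for the mean and SD of 3 libraries; each panel has its own linear axis from 0. DCN, LUM, PDGFRB, CDH5 and PZP have all shENO1 libraries below all shcon libraries, COL1A1 overlaps through shcon replicate 3 at 3.45 FPKM, and COL3A1 and PECAM1 lie near 0.

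Fibrillar collagen was uneven. COL1A1 (ENSG00000108821; chromosome 17 from 50184101 to 50201632) was at 5.56, 4.35 and 4.19 FPKM in shENO1 libraries, against 7.75, 7.15 and 3.45 FPKM in shcon libraries. The groups overlapped, since shcon replicate 3 was the lowest of the 6 libraries. The mean was 4.70 ± 0.748 FPKM in shENO1 libraries, against 6.12 ± 2.33 FPKM in shcon libraries (n = 3 each, SD), and the log2 fold change was -0.27 (SE 0.25). It was -0.68 without shENO1 replicate 1 and shcon replicate 3, and 0.023 after the correction, so the data give no direction for COL1A1. COL1A1 was meant as a check on other cells, yet its shcon level exceeded that of 57.0% of the tested genes.

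COL3A1 (ENSG00000168542; chromosome 2 from 188974373 to 189012746) stood close to the limit of detection. It had 14, 5 and 6 fragments in shENO1 cells and 4, 5 and 2 fragments in shcon cells, or 0.0436 to 0.127 FPKM in shENO1 cells and 0.0178 to 0.0463 FPKM in shcon cells. The sums of 25 shENO1 and 11 shcon fragments have 95% Poisson intervals of 16.2 to 36.9 and 5.49 to 19.7, which cover counting error only and overlap. In fibroblasts the collagen genes COL1A1 and COL3A1 are both abundant, whereas here they differed widely, with COL1A1 at 3.45 FPKM or more and COL3A1 at 0.127 FPKM or less. COL3A1 was below the mean of 0.5 FPKM and was not tested.

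PDGFRB was the weakest of the expressed members. The gene (ENSG00000113721; chromosome 5 from 150113839 to 150155872), a receptor tyrosine kinase, was at 0.223, 0.264 and 0.144 FPKM in shENO1 libraries, against 0.947, 1.02 and 0.683 FPKM in shcon libraries, on 26, 32 and 16 shENO1 fragments and 110, 116 and 81 shcon fragments. The groups did not overlap, and shcon replicate 3 was again the lowest control. The mean was 0.211 ± 0.0612 FPKM in shENO1 libraries, against 0.882 ± 0.176 FPKM in shcon libraries (n = 3 each, SD), a 4.19-fold difference. On the log2(FPKM + 1) scale the difference shrank to -0.63 (SE 0.14), a scale that understates changes near and below 1 FPKM. With a mean of 0.546 FPKM it passed the filter through its shcon level alone, so a difference was built into its presence among the tested genes.

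CDH5 had the highest mean of the group in shcon cells. VE-cadherin, whose gene (ENSG00000179776) lies on chromosome 16 from 66366622 to 66404784, was at 4.91, 4.95 and 3.82 FPKM in shENO1 libraries, against 16.2, 16.3 and 9.24 FPKM in shcon libraries. The groups did not overlap, with shcon replicate 3 well below the other 2 controls. The mean was 4.56 ± 0.640 FPKM in shENO1 libraries, against 13.9 ± 4.05 FPKM in shcon libraries (n = 3 each, SD), 3.05-fold lower, and the log2 fold change was -1.39 (SE 0.21). Its level exceeded that of 48.8% of the tested genes in shENO1 cells and of 77.9% in shcon cells. The values rest on 487, 511 and 362 fragments in shENO1 cells and 1603, 1584 and 934 fragments in shcon cells.

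PECAM1, which endothelial cells express along with VE-cadherin, was nearly absent. PECAM1 (ENSG00000261371; chromosome 17 from 64319415 to 64413776) had 8, 4 and 6 fragments in shENO1 cells and 1, 3 and 1 fragments in shcon cells, at 0.0305 to 0.0633 FPKM in shENO1 cells and 0.00777 to 0.0243 FPKM in shcon cells. The sums of 18 shENO1 and 5 shcon fragments have 95% Poisson intervals of 10.7 to 28.4 and 1.62 to 11.7. Every shENO1 library was above every shcon library for PECAM1, the reverse of CDH5, though on few fragments. The same order held for 25% of tested genes, which average 0.5 FPKM or more and so lie above the level of PECAM1. No such share was taken over genes with as few fragments. Like COL3A1, PECAM1 was not tested.

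PZP had the lowest ratio of the group. PZP (ENSG00000126838; chromosome 12 from 9148840 to 9208395) was at 1.62, 2.04 and 1.96 FPKM in shENO1 libraries, against 8.72, 10.6 and 5.73 FPKM in shcon libraries. Every shENO1 library was far under every shcon library, with shcon replicate 3 once more the lowest control. The mean was 1.87 ± 0.224 FPKM in shENO1 libraries, against 8.33 ± 2.43 FPKM in shcon libraries (n = 3 each, SD), 4.45-fold lower, on 165, 216 and 191 shENO1 fragments and 888, 1054 and 596 shcon fragments. Its log2 fold change of -1.67 (SE 0.19) ranked 6 from the lowest among all tested genes. The pseudogene TPT1P12 lies inside PZP on the same strand and was at 1.198 to 1.31 FPKM in shENO1 libraries, against 1.83 to 6.61 FPKM in shcon libraries. How the authors treated reads that overlap both, or that match the related A2M and A2MP1, is not given in the sources used here, so PZP values carry that uncertainty.

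Together, 5 of the 6 tested members had all shENO1 libraries below all shcon libraries, which 21.5% of all tested genes had as well. The mean in shENO1 cells was at most 0.5 times that in shcon cells for DCN, PDGFRB, CDH5 and PZP, against 3.59% of tested genes, and at most 0.3 times for DCN, PDGFRB and PZP, against 0.527%. These members were chosen with this contrast known and PDGFRB entered through the filter, so the counts describe the choice and support nothing. Without shcon replicate 3, or without it and shENO1 replicate 1, all 6 had every remaining shENO1 library below every remaining shcon library, as did 31.1% and 37.2% of tested genes. In shcon cells the order by mean was CDH5, LUM, DCN, PZP, COL1A1, PDGFRB, COL3A1 and PECAM1. Each of the first 5 overlapped its neighbour in that order, the step to PDGFRB was a clear gap, and COL3A1 and PECAM1 overlapped. In shENO1 cells LUM was the highest, clear of COL1A1, which overlapped CDH5, and DCN, PZP and PDGFRB followed without overlap.

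The libraries of one group were not alike. In shcon replicate 3 the level was below that of shcon replicates 1 and 2 and above all shENO1 libraries for DCN, PDGFRB, CDH5 and PZP, as it was for 8.96% of tested genes. The level in shcon replicate 3 over the mean of the other shcon libraries was 0.714 for DCN, 0.695 for PDGFRB, 0.569 for CDH5, 0.595 for PZP and 0.462 for COL1A1, but 1.10 for LUM. Over the 10738 genes averaging 2 FPKM or more the median of this ratio was 1.02, with 0.617 and 1.43 at the 5th and 95th percentiles. CDH5, PZP and COL1A1 thus lay below the 5th percentile. The part of this library in the differences is shown by the values without it: -1.58 for DCN, -1.64 for CDH5 and -1.89 for PZP on the log2 scale.

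**Figure D2:**
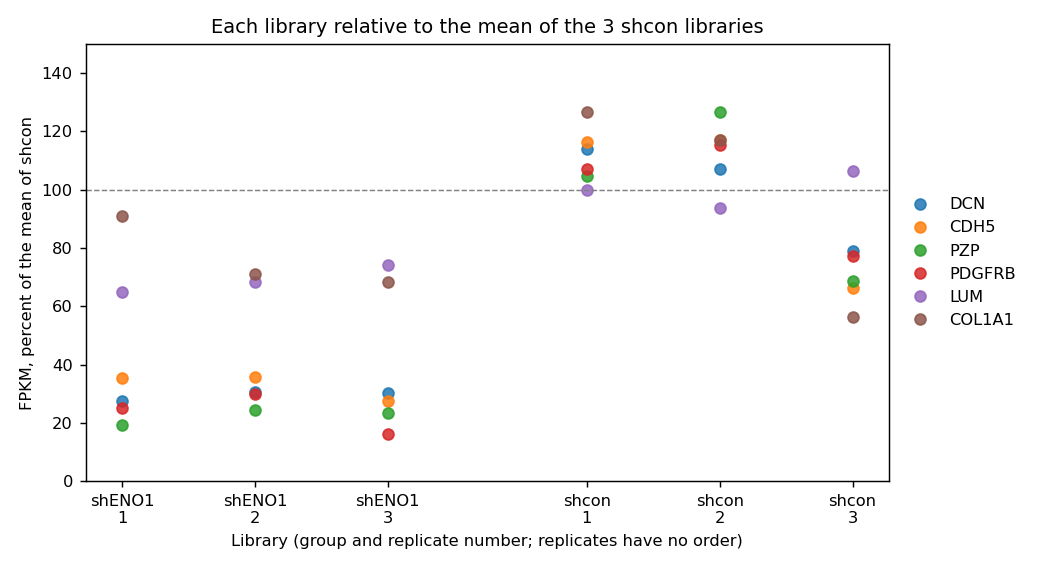
FPKM of the 6 tested genes in each library as a percent of the mean of the 3 shcon libraries (dashed line at 100%), shENO1 libraries on the left and shcon libraries on the right. In shENO1 cells DCN, CDH5, PZP and PDGFRB lie between 16.3% and 35.6%, while LUM and COL1A1 lie between 65.1% and 90.9%; in shcon replicate 3 LUM is at 106% and the other genes at 56.3% to 78.9%.

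The genes closest to the members by profile came from outside the lists used here, apart from DCN itself for PZP. Likeness was the root mean square difference of centred log2(FPKM + 1) over the 6 libraries. Since this scale understates changes of low genes, genes of unlike level can be near each other and still differ in ratio. DCN was nearest to EDN1 (0.0751), the endothelin gene, then to THBS1, which encodes thrombospondin, and to UPK3B. EDN1 was at 2.14, 2.17 and 2.46 FPKM in shENO1 libraries, against 9.02, 8.30 and 7.09 FPKM in shcon libraries. CDH5 was nearest to MMP24 (0.0451), a membrane metalloproteinase gene, which was at 0.546, 0.674 and 0.352 FPKM in shENO1 libraries, against 3.76, 3.90 and 1.70 FPKM in shcon libraries, and then to LCN2 and LAMB2. PZP was nearest to DCN itself (0.170), then MMP24 and EDN1. LUM was nearest to SHMT1, ANXA4 and TPI1P1, PDGFRB to LINC01311, ABCB8 and HSPA2, and COL1A1 to NFKBIA (0.0544), ZMIZ2 and MGAT5B. ABCB8 averaged 3.54 FPKM in shENO1 and 6.05 FPKM in shcon libraries, against 0.211 and 0.882 FPKM for PDGFRB, a much smaller ratio between groups. Between members, CDH5 and DCN were 0.163 apart and LUM and PZP 0.659.

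**Figure D3:**
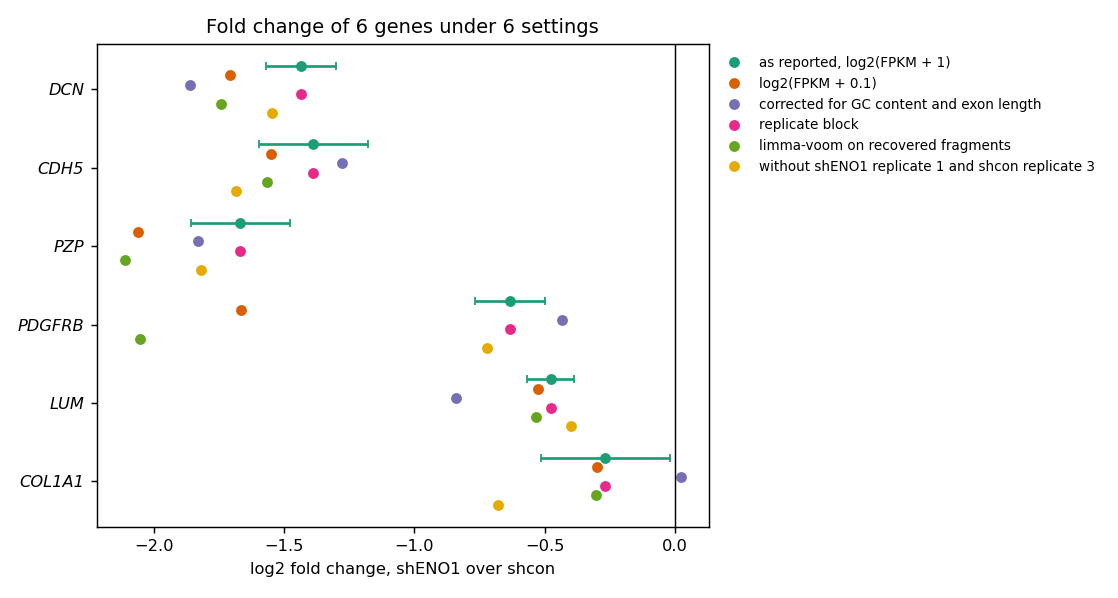
Log2 fold change of shENO1 over shcon for the 6 tested genes under 6 settings; the bar on the first setting is its SE. DCN, CDH5 and PZP stay between -1.28 and -2.11, PDGFRB moves between -0.43 and -2.05, and COL1A1 reaches 0.023 after correction for GC content and exon length.

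Of the other small leucine-rich proteoglycans, few were expressed. Of 14 genes with values, 2 were tested and 11 had a mean below 0.1 FPKM, among them ASPN, KERA and EPYC. TSKU, which encodes tsukushi, fell to 44.8, 35.8 and 36.3 FPKM in shENO1 cells, against 64.6, 63.1 and 47.0 FPKM in shcon cells (a difference of -0.56 on the log2 scale, limma adjusted p = 0.0268). ECM2 was at 1.12, 0.971 and 1.03 FPKM in shENO1 libraries, against 0.287, 0.178 and 0.795 FPKM in shcon libraries and was not called (limma adjusted p = 0.0503), but was higher with the replicate number as a block (limma adjusted p = 0.0480). With means of 1.04 FPKM in shENO1 and 0.420 FPKM in shcon libraries, ECM2 reached the filter through its shENO1 level. The call of TSKU was lost after the correction for GC content and exon length (-0.22) and without shENO1 replicate 2 or 3 or shcon replicate 1 or 2. It was also lost in the unfiltered table and with quantile normalization, 8 of 19 alternatives in all. The core protein genes DCN and LUM were thus, with TSKU, ECM2 and CHAD, among the few of this family above 0.1 FPKM in these cells.

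Genes of enzymes that build the glycosaminoglycan chains of proteoglycans were called in both directions. Of 16 genes of glycosaminoglycan synthesis tested, 3 were higher, 5 were lower and 8 were not called (median log2 fold change -0.045). Over all tested genes 15.1% were higher and 14.4% were lower. CSGALNACT2, which starts chondroitin chains, was higher (0.69, limma adjusted p = 0.00698), and so was the chain polymerase gene CHSY1 (0.55, limma adjusted p = 0.00478). CHPF, the chondroitin polymerizing factor gene, was lower (-0.89, limma adjusted p = 0.00900), at 31.2, 23.1 and 21.2 FPKM in shENO1 libraries, against 54.1, 48.2 and 39.7 FPKM in shcon libraries. B3GALT6, a galactosyltransferase gene of the linker, was also lower (-0.69, limma adjusted p = 0.0171), but at -0.11 after the correction it was not called. FAM20B, the xylose kinase gene, was not called at 27.0 to 29.4 FPKM in shENO1 libraries, against 27.0 to 28.3 FPKM in shcon libraries. Between 1 and 2 genes of this list were lower without shENO1 replicate 2 or 3 or shcon replicate 1 or 2. After the correction 2 were lower, CHPF (-0.26, limma adjusted p = 0.0242) and FAM20B (-0.18, limma adjusted p = 0.0400). Of the 5 genes lower before it, CHPF was thus the only one that stayed lower.

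Among other fibrillar collagen genes, 1 was higher, 1 lower and 1 not called of 3 tested, where 15.1% of all tested genes were higher and 14.4% lower. COL5A3, which encodes a type V chain, was higher, at 2.64, 1.89 and 1.92 FPKM in shENO1 libraries, against 0.371, 0.507 and 0.275 FPKM in shcon libraries (log2 fold change 1.18, limma adjusted p = 0.00334), a call kept in all 18 alternatives that tested it, although it reached the filter through its shENO1 level. COL5A1, the most abundant of these genes, was lower at 34.0, 30.5 and 26.8 FPKM in shENO1 libraries, against 61.9, 59.3 and 34.8 FPKM in shcon libraries (-0.72, limma adjusted p = 0.0396). As for CDH5 and PZP, shcon replicate 3 was the lowest control for COL5A1. Its call was lost in the unfiltered table, with quantile normalization, and without shENO1 replicate 1, 2 or 3 or shcon replicate 1 or 2. These are 7 of 19 alternatives, with limma adjusted p-values of up to 0.127 over all of them. COL27A1 was not called.

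Of 23 genes of collagen maturation tested, 2 were higher, 10 were lower and 11 were not called (median log2 fold change -0.31). The shares over all tested genes were 15.1% higher and 14.4% lower. P4HA1, a collagen prolyl hydroxylase subunit gene, was higher (0.73, limma adjusted p = 0.0141), a call lost without shENO1 replicate 2 or 3 or shcon replicate 1 (limma adjusted p of up to 0.0581), which left 1 higher gene. PPIB (-0.69), the procollagen proteinase enhancer gene PCOLCE (-0.66), the lysyl oxidase gene LOXL1 (-0.66) and FKBP10 (-0.55) were lower, with limma adjusted p-values of 0.0115, 0.0279, 0.0401 and 0.00732. After the correction PCOLCE (-0.17, limma adjusted p = 0.358) and LOXL1 (-0.16, limma adjusted p = 0.380) were not called, and over all alternatives their calls were lost in 8 of 19 and 7 of 18. PPIB lost its call without shENO1 replicate 2 (limma adjusted p = 0.0531), and FKBP10 in no alternative. CRTAP and COLGALT1, which were among the most abundant, were not called, though COLGALT1 was lower with the replicate block (limma adjusted p = 0.0486). After the correction 3 genes of the list were lower, and between 2 and 4 were lower without shENO1 replicate 2 or 3 or shcon replicate 1 or 2.

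Most of the wider fibroblast markers tested were lower. Leaving out the members, 5 of 6 tested genes were lower, where 14.4% of all tested genes were, and the median log2 fold change was -0.68 beside 0.029 over all tested genes. FBLN1, a fibulin gene of elastic matrix, was at 80.4, 67.7 and 64.2 FPKM in shENO1 libraries, against 139, 142 and 93.2 FPKM in shcon libraries (-0.79, limma adjusted p = 0.0149). The call of FBLN1 was lost in 4 of 19 alternatives. FN1, the fibronectin gene, was at 4.08, 3.999 and 3.38 FPKM in shENO1 libraries, against 6.21, 7.64 and 5.79 FPKM in shcon libraries (-0.64, limma adjusted p = 0.00900), and FBLN2 and COL6A1 were lower as well (-0.81 and -0.56, limma adjusted p = 0.0401 and 0.0276). FBN1, the fibrillin gene, was not called (0.32, limma adjusted p = 0.0503), but was higher with the replicate block (limma adjusted p = 0.0170). SPARC, COL6A2, COL6A3, DPT, TNC and MMP2, genes that fibroblasts commonly express, had means below 0.1 FPKM. SPARC was at 0.145, 0.152 and 0.180 FPKM in shENO1 libraries, against 0.0265, 0.0539 and 0.0259 FPKM in shcon libraries. FAP went the other way, at 0.0879, 0.0508 and 0.0277 FPKM in shENO1 libraries, against 0.264, 0.225 and 0.742 FPKM in shcon libraries. Both lay below the filter and were not tested. Summed over the 15 markers with values, the list reached 128 to 158 FPKM in shENO1 libraries, against 171 to 260 FPKM in shcon libraries. After the correction 3 of the 6 were lower, without FBLN2 (-0.44, limma adjusted p = 0.167) and COL6A1 (-0.11, limma adjusted p = 0.260), and between 1 and 3 were lower without shENO1 replicate 1, 2 or 3 or shcon replicate 1 or 2.

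Pericyte and smooth muscle markers beside PDGFRB were not called. Of 6 tested, limma called none (1 at an unadjusted p under 0.05), where it called 29.5% of all tested genes, and the median log2 fold change was 0.023. The most abundant were CSPG4 at 20.0, 16.2 and 14.8 FPKM in shENO1 libraries, against 27.7, 27.7 and 18.4 FPKM in shcon libraries, MCAM and NOTCH3. CSPG4 was lower with the replicate block (limma adjusted p = 0.0157), 1 gene of the list was lower with limma-voom, and 2 were lower without shcon replicate 3. After the correction 2 genes of the list were higher and none was lower, NOTCH3 (0.60, limma adjusted p = 0.00154) and DES (0.68, limma adjusted p = 0.0320). DES, with means of 0.684 FPKM in shENO1 and 0.459 FPKM in shcon libraries, reached the filter through its shENO1 level. CNN1 was above 0 in 1 library only, and the summed list was at 39.8 to 50.5 FPKM in shENO1 libraries, against 37.6 to 57.6 FPKM in shcon libraries. Of the ligands of the receptor, PDGFB was lower (-0.37, limma adjusted p = 0.0415), a call lost in 9 of 19 alternatives and a difference of 0.0058 after the correction, and PDGFA was not called at 14.6 to 16.3 FPKM in shENO1 libraries, against 12.2 to 18.2 FPKM in shcon libraries. PDGFC and PDGFD were each at or below 0.147 FPKM.

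Endothelial markers other than CDH5 were mostly at or near 0. Of 15 with values, 10 had means below 0.1 FPKM, among them VWF, TEK, TIE1, CLDN5, CD34, ROBO4 and PLVAP. VWF, the von Willebrand factor gene, was at 0.0295 FPKM in 1 shENO1 library and 0 in the others, and at 0.0828, 0.108 and 0.0695 FPKM in shcon cells. EGFL7 was lower at 13.0, 8.39 and 7.99 FPKM in shENO1 libraries, against 26.6, 21.1 and 21.2 FPKM in shcon libraries (-1.17, limma adjusted p = 0.00563), a call kept in all 19 alternatives. ENG, the endoglin gene, was lower (-0.40, limma adjusted p = 0.0229), but not after the correction (0.012) or without shENO1 replicate 2 or 3 or shcon replicate 1 or 2, and ESAM was not called. The summed list was at 28.2 to 38.8 FPKM in shENO1 libraries, against 50.4 to 57.3 FPKM in shcon libraries, of which EGFL7 and ENG made up most, and the part of other cells in the levels of CDH5 was not tested. No lymphatic, leukocyte, hepatocyte or erythroid marker reached the mean of 0.5 FPKM: 2, 7, 7 and 3 genes of these lists had values. The leukocyte list summed to 0.304 to 1.07 FPKM in shENO1 libraries, against 0.616 to 1.11 FPKM in shcon libraries, and the hepatocyte plasma protein list to 0.206 to 0.294 FPKM in shENO1 libraries and 0.119 to 0.209 FPKM in shcon libraries.

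**Figure D4:**
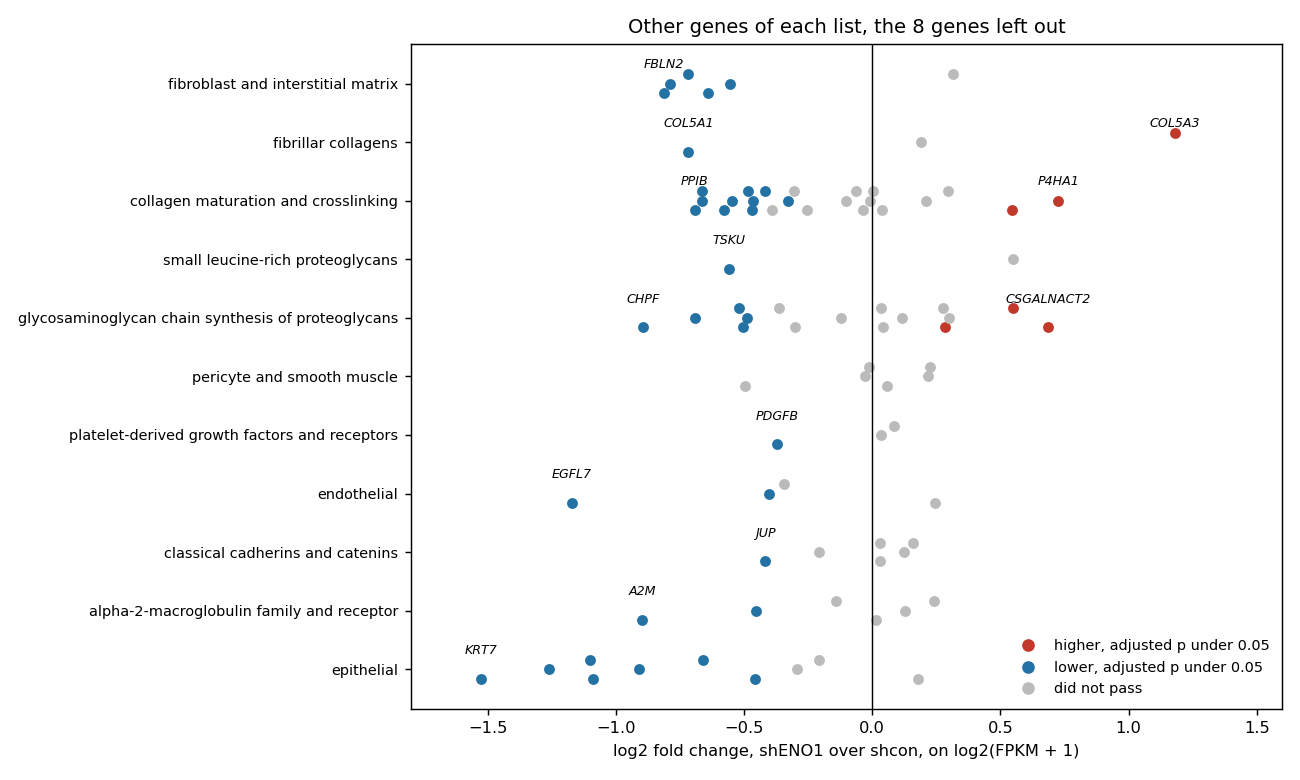
Log2 fold change of shENO1 over shcon on log2(FPKM + 1) for the tested genes of 11 lists, the 8 genes left out; blue points were lower and red points higher at a limma adjusted p under 0.05, grey points were not called, and the outermost called genes are named. The fibroblast list has 5 of 6 genes lower, the pericyte list has none called, and COL5A3 at 1.18 lies opposite to COL5A1 at -0.72.

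The other cadherins of the list used here were low or not called. Of 6 other cadherin and catenin genes tested, 1 was lower, where 14.4% of all tested genes were, and 5 were not called. CDH1 was at 0.655, 0.776 and 0.602 FPKM in shENO1 libraries, against 1.21, 0.896 and 0.733 FPKM in shcon libraries and was not called, and CDH2 had at most 0.146 FPKM. CDH13 was not called at 3.25 to 3.61 FPKM in shENO1 libraries, against 2.83 to 3.98 FPKM in shcon libraries. CDH5 was the cadherin with the highest level of those in the list, but in shENO1 replicate 3 it was at 3.82 FPKM, against 3.25 FPKM for CDH13. The catenins that link cadherins to actin were abundant. CTNNA1 was not called at 60.1 to 62.7 FPKM in shENO1 libraries, against 58.8 to 61.4 FPKM in shcon libraries. CTNNB1, beta-catenin, was not called at 25.0 to 26.8 FPKM in shENO1 libraries, against 21.5 to 25.4 FPKM in shcon libraries. JUP, plakoglobin, was lower (-0.42, limma adjusted p = 0.0459), a call lost in 9 of 19 alternatives, at -0.030 after the correction.

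A2M, the nearest relative and neighbour of PZP, was lower too. A2M encodes alpha-2-macroglobulin, which traps proteases, and lies 32.6 kb from PZP on chromosome 12. It was at 0.165, 0.121 and 0.132 FPKM in shENO1 libraries, against 1.07, 1.22 and 1.09 FPKM in shcon libraries (log2 fold change -0.90, limma adjusted p = 0.00411), a call kept in all 18 alternatives that tested it. Like PDGFRB, A2M reached the filter through its shcon level. A2MP1, the pseudogene 20.1 kb on the other side of PZP, was not called at 0.592, 0.962 and 1.19 FPKM in shENO1 libraries, against 0.725, 1.10 and 0.400 FPKM in shcon libraries. Of 6 tested genes of the family and its receptor, 2 were lower, where 14.4% of all tested genes were, and 4 were not called. LRPAP1, the receptor chaperone gene, was lower (-0.45, limma adjusted p = 0.0171), and the abundant C3, LRP1 and CD109 were not called. The call of LRPAP1 was lost without shENO1 replicate 2 or 3 or shcon replicate 1 (limma adjusted p of up to 0.0781), which left A2M as the 1 lower gene.

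Some expressed neighbours of the other members were called, in both directions. Neighbours here are the nearest genes with a symbol that averaged 0.5 FPKM or more, and genes without a symbol were passed over. LINC00920, 3.74 kb from CDH5, was not called (0.094), and on the other side the nearest was RPS27AP16 at 5311 kb, which was lower (-0.53, limma adjusted p = 0.0191). RPL7P1 and TCOF1, on the sides of PDGFRB, were not called at -0.17 and -0.012. PPP1R9B, 33.4 kb from COL1A1, was lower (-0.50, limma adjusted p = 0.0204), though not after the correction (-0.033), and TMEM92 on the other side was not called. Around COL3A1, TFPI (0.64, limma adjusted p = 0.0150) and WDR75 (0.52, limma adjusted p = 0.0104) were higher, and beside PECAM1 POLG2 was higher (0.32, limma adjusted p = 0.0343) and TEX2 was not called. None of these 3 was called after the correction. The nearest such genes around DCN and LUM besides each other, LINC01619 and ATP2B1-AS1, were farther off, at 802 kb from DCN and 1390 kb from LUM. Neither was called.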

How the data were processed

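RNA-seq of SNU16 cells with an shRNA against ENO1 or a control shRNA was compared, with groups taken from the labels. The deposited FPKM table was made by the authors; their processing notes name cutadapt, featureCounts, MultiQC and GRCh38, while for the aligner, the FPKM program, the strand setting and reads shared between genes the answer is not given in the sources used here. No other column of per-sample values was left out. The 8 genes and all gene lists were chosen with earlier results of these data known. Low FPKM values move in steps of 1 fragment, and 94.18% to 94.59% of values up to 100 fragments were whole within 0.05 fragments, from which depth and fragments per gene were recovered. Exon length and GC content came from GENCODE release 29.

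Genes averaging 0.5 FPKM or more (15181) were fitted in limma 3.58.1 (R 4.3.3) on log2(FPKM + 1), lmFit and eBayes with a variance trend, shENO1 minus shcon, with Benjamini-Hochberg adjustment over all of them and a threshold of 0.05. On this scale fold changes of low genes are understated. No p is given for the 8 genes. An exact permutation test of 3 against 3 libraries cannot give less than 0.1. The replicate numbers of the labels were treated as pairs in an alternative fit, since deviations of equally numbered libraries correlated at 0.23, 0.118 and 0.256. Unequally numbered libraries correlated at -0.208 to 0.061. The labels state no pairing and these correlations come from the same values, so calls made only with the block rest on an assumed pairing. Other alternatives were quantile normalization, median-of-ratios scaling, pseudocounts of 0.1 and 0.5, the table unfiltered or kept to means of 5 FPKM and more, eBayes robust or untrended, correction for GC content and exon length with and without the block (splines on 7377 genes, which also take out biology that follows either), limma-voom on recovered fragments and each library left out. The fit without shENO1 replicate 1 and shcon replicate 3 was chosen after seeing the data. The scripts were tested on simulated data.

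Named genes are the 8 genes and ENO1, up to 4 called genes of each list with the largest fold changes and the 3 most abundant, close relatives, the 3 nearest profiles and the nearest expressed neighbours. Profiles and neighbours were taken among genes with a symbol and a mean of 0.5 FPKM or more. Markers named for being near 0, the neighbours of PECAM1 and COL3A1, and SPARC, FAP, FBN1, DES, CDH13, EPCAM and KRT19, were partly named after their values were seen. Genes of the lists without a value in the table were not analysed here. RGS5 has 2 entries under 1 symbol and counts once. Tables were made in Python 3.11.15 (numpy 2.4.6, pandas 2.3.3) and figures in matplotlib 3.10.9.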

Additional observations from a re-analysis of the deposited data

How the results depend on the processing

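Numbers of genes called depended on the settings. Of the 15181 genes, 2289 were higher and 2188 lower, against 1402 and 1302 without a filter, 1380 lower after correction for GC content and exon length together with the replicate block, and 3595 and 3590 without shENO1 replicate 1 and shcon replicate 3. Leaving out 1 library at a time gave 753 to 3028 higher and 756 to 2799 lower genes. The replicate block alone gave 2927 and 2711 genes; in this balanced design it can change no fold change, only the errors. For DCN the log2 fold change was -1.71 with a pseudocount of 0.1, -1.86 after that correction, with or without the replicate block, and -1.74 with limma-voom. LUM was at -0.84 after that correction, with or without the block. PDGFRB was at -1.66 and -0.96 with pseudocounts of 0.1 and 0.5, -0.43 after that correction, with or without the block, and -2.05 with limma-voom. PZP was at -2.06 with a pseudocount of 0.1 and -2.11 with limma-voom. COL1A1 turned to 0.023 after that correction, with or without the block, was between -0.58 and -0.087 with 1 library left out, and was at -0.68 without shENO1 replicate 1 and shcon replicate 3. CDH5 stayed between -1.26 and -1.69 under all alternatives, with -1.64 without shcon replicate 3 and -1.69 without that library and shENO1 replicate 1. A larger fold with a smaller pseudocount follows from the scale, and the other causes were not tested. ENO1 stayed lower under all 19 alternatives. PDGFRB could not be fitted among genes averaging 5 FPKM or more. Depth limits PECAM1 and COL3A1, at 1 to 14 fragments per library.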
